A study of Homo sapiens with 18 samples.

Results

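The comparison described here is U937 cells treated with valproic acid alone against control cells, on 6 of the 18 arrays of the series. U937 is a human cell line, long in use, that came from a histiocytic lymphoma and has monocytic features. The members of the comparison were chosen by label: the 3 arrays labelled V1 and the 3 labelled ctrl, each n = 3. Total RNA was hybridised to Affymetrix gene arrays, and the values are deposited log2 signals, 1 per probe set. Valproic acid, like panobinostat in the same series, inhibits histone deacetylases and was added for 24 h. The number 1 stands in the valproic acid label without a unit. No genetic change or other agent is named for either group. The rest of the series holds panobinostat, decitabine, and decitabine with each inhibitor, at 3 arrays a group. The decitabine groups, which are used below, had 3 pulses of that drug of 24 h each, and the inhibitor came with the last. Nothing in the labels tells separate cultures from repeats of 1 culture, so the p-values rest on differences between arrays that may be partly technical.

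Valproic acid is a short branched fatty acid used against epilepsy. It inhibits the zinc-dependent histone deacetylases, mainly those of class I, so that acetyl groups stay on histones and on other proteins. Acetylated histones are a mark of active promoters and enhancers, and proteins with bromodomains bind them. In myeloid leukemia lines, deacetylase inhibitors are known to slow growth and to switch on part of the mature myeloid program.

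The cells carried part of the myeloid marker set. CD4, a surface protein that monocytic cells share with T cells, averaged 9.70 in valproic acid and 9.74 in control on the log2 scale, and the myeloid transcription factor SPI1 averaged 6.63 and 6.97. ANPEP (3.83 and 3.94) and the lipopolysaccharide co-receptor CD14 (3.43 and 3.45) lay near the array median, which ran from 3.81 to 3.87 over the 18 arrays. CD33, PTPRC, ITGB2 and FCER1G were on no named probe set. Among markers of other cells LCK, EPCAM, KRT19 and GP9 lay between 3.16 and 3.78 in both groups, and NCR1 averaged 3.67 in valproic acid and 4.01 in control. The platelet chemokine PF4 averaged 4.68 in valproic acid and 4.95 in control (not called). NCAM1 averaged 8.90 in valproic acid and 8.05 in control, and the B cell factor PAX5 5.72 and 4.96. In bulk RNA a change in the number of cells of a kind and a change in RNA per cell cannot be told apart. Unlike sequencing, arrays carry no depth, and the precision of a change depends on the number of arrays and on the spread of the gene.

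Valproic acid raised more genes than it lowered, and the larger changes were mostly rises. Of 14884 genes with a named probe set, 1112 (7.47%) had an adjusted p under 0.05 in limma, which is what "called" means below. Of these 704 (4.73% of all) were higher and 408 (2.74%) lower. At 2-fold or more there were 289 (1.94%), 220 (1.48%) higher and 69 (0.464%) lower, and at an unadjusted p under 0.05 there were 2925 (19.7%). Protein-coding genes were called higher in 5.54% and lower in 3.17% of cases, long non-coding RNAs in 2.29% and 1.36%, pseudogenes in 1.56% and 0.891%, and miRNA genes in 0.466% each way. For 25.1% of all genes the 3 valproic acid arrays did not overlap the 3 controls. Without valproic acid replicate 1 the number called was 508, without control replicate 3 it was 653, and without control replicate 1 it was 729. Leaving out each of the 6 arrays in turn, 420 of the 1112 genes kept their call every time, 304 higher and 116 lower. Genes said below to have risen or fallen are among these 420 unless an array is named beside them, and changes are on the log2 scale with their standard error (SE) from limma. Counts of list members called below are to be read beside the 4.73% higher and 2.74% lower over all genes. These shares change with the control level, so lists of well measured genes are also to be read beside the shares at their level.

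The balance of rises and falls differed with the control level. Where controls averaged under 4, 78 of 6248 genes were called higher and 7 lower. Between 4 and 6 the counts were 203 higher and 47 lower of 2996. Between 8 and 10 they were 168 higher and 185 lower of 2338, and from 10 upward 27 and 60 of 796. As shares, 9.1% were called higher and 4.35% lower between 6 and 8, and 7.19% and 7.91% between 8 and 10. The rises of 2-fold or more were 110 between 4 and 6, 20 between 8 and 10 and 0 above. A gene near the background of an array has little room to fall.

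**Figure D1:**
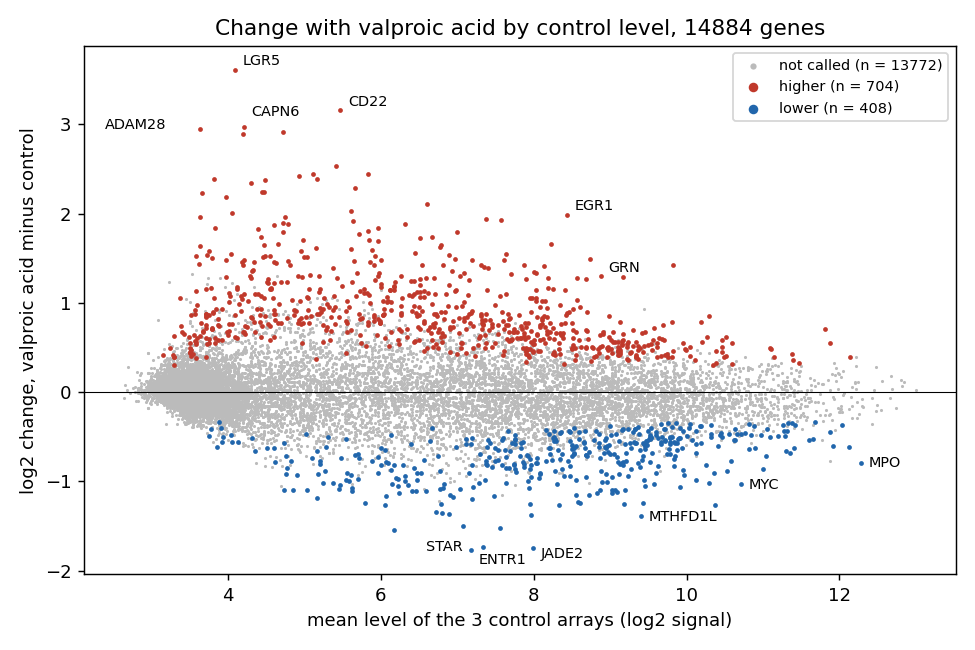
Change with valproic acid (log2, valproic acid minus control) against the mean of the 3 control arrays (log2 signal), 1 point a gene; red points were called higher (n = 704), blue points lower (n = 408), grey points not called. LGR5, with the largest rise at 3.61, has a control mean of 4.1, and MTHFD1L is marked among the falls at -1.39.

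Within the valproic acid group replicate 1 responded most. This was read on genes called when valproic acid was added to decitabine, a change measured on other arrays. The spread of each gene behind those calls was estimated on all 18 arrays, these included. For the 531 such genes called higher, the median difference from the control mean was 0.72 in replicate 1, 0.51 in replicate 2 and 0.52 in replicate 3. For the 382 called lower it was -0.55 in replicate 1 and -0.40 in both others. Across all genes the valproic acid arrays correlated with each other at 0.9894 to 0.991, the controls with each other at 0.9909 to 0.992, and valproic acid with control arrays at 0.9782 to 0.9864.

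The 20 largest rises began with surface receptors. LGR5, a receptor for R-spondins that enhances Wnt signalling, had levels of 7.59, 7.51 and 8.02 in valproic acid, against 3.71, 3.82 and 4.76 in control. All 3 treated arrays lay far above the controls, and control replicate 3 was the highest of its group. The rise was 3.61 (SE 0.24), or 12.2-fold (adjusted p = 1.39e-06). CD22, a sialic acid-binding lectin of B cells that dampens their receptor, had 8.95, 8.43 and 8.51 in valproic acid, against 5.24, 5.56 and 5.62 in control. It rose by 3.16 (SE 0.26; adjusted p = 5.88e-06), again with no overlap. TREML2, a receptor of the TREM family on myeloid and lymphoid cells, rose by 2.89 (SE 0.35), and TLR6, which pairs with TLR2 to sense bacterial lipopeptides, by 2.24 (SE 0.32).

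Proteases and their relatives formed a further part of the top 20. The metalloprotease ADAM28 had 7.13, 6.10 and 6.53 in valproic acid, against 3.66, 3.69 and 3.57 in control, a rise of 2.95 (SE 0.21; adjusted p = 2.3e-06). Its control arrays lay slightly below the array median, and none of the treated arrays came near them. CAPN6, a calpain that lacks the catalytic residue, had 7.5, 6.73 and 7.31 in valproic acid, against 4.68, 4.03 and 3.91 in control (change 2.97, SE 0.29). CAPN5, a calcium-dependent protease of the same family, rose by 2.42 (SE 0.23), or by 1.17 with the mean of its probe sets. No other calpain or calpastatin of the 12 measured was called. Of 31 ADAM and matrix metalloprotease genes 3 (9.68%) were higher, against 4.73% of all genes, and 0 were lower. The 3 were ADAM28, MMP19 (1.54, SE 0.26) and TIMP2, an inhibitor of matrix metalloproteases (0.73, SE 0.20). TIMP2 lost its call without any array but control replicate 1 (adjusted p up to 0.143).

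Signalling and trafficking genes filled much of the rest. OPTN, a receptor that brings ubiquitin-tagged cargo to autophagosomes, had 8.43, 7.56 and 7.86 in valproic acid, against 5.48, 5.49 and 5.28 in control (change 2.53, SE 0.24). STX11, a SNARE protein needed for granule release in cytotoxic cells, rose by 2.38 (SE 0.27). RGS9, which speeds the shut-off of G proteins, rose by 2.39 (SE 0.36) and the small GTPase RRAS by 2.29 (SE 0.29). For OPTN, STX11 and RGS9 replicate 1 was the highest of the treated arrays, as it was for the response as a whole. GRAMD1C, of a family that moves cholesterol from the plasma membrane to the endoplasmic reticulum, rose by 2.91 (SE 0.27). ENPP2, the enzyme autotaxin that makes lysophosphatidic acid, had 6.80, 5.22 and 5.64 in valproic acid, against 3.76, 3.69 and 3.53 in control, so that its treated arrays spread over more than a 2-fold range (change 2.23, SE 0.42). Each of the 20 genes in the plot of the largest rises kept its call under every alternative that tested it.

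The largest falls were smaller than the largest rises. Of the falls of 2-fold or more, 12 were at control levels between 4 and 6, 33 between 6 and 8 and 21 between 8 and 10. JADE2, a scaffold of the KAT7 histone acetyltransferase complex, had 5.79, 6.54 and 6.42 in valproic acid, against 7.96, 7.98 and 8.04 in control. The controls lay close together, and the change was -1.74 (SE 0.20; adjusted p = 5.82e-05). STAR, which delivers cholesterol to the inner mitochondrial membrane for steroid synthesis, had 4.97, 5.62 and 6.24 in valproic acid, against 7.10, 7.17 and 7.74 in control. It changed by -1.73 (SE 0.29) with widely spread treated arrays. MTHFD1L, a mitochondrial folate enzyme that releases formate, had 7.86, 8.17 and 8.03 in valproic acid, against 9.05, 9.33 and 9.84 in control (change -1.39, SE 0.20). ENTR1, an endosomal trafficking protein, changed by -1.77 (SE 0.34), the homeobox gene DLX1 by -1.35 (SE 0.29) and the nucleolar protein LYAR by -1.26 (SE 0.26). Some of the 20 largest falls rest on single arrays: TFAP4 (-1.54) had an adjusted p of 0.0594 without valproic acid replicate 1.

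**Figure D2:**
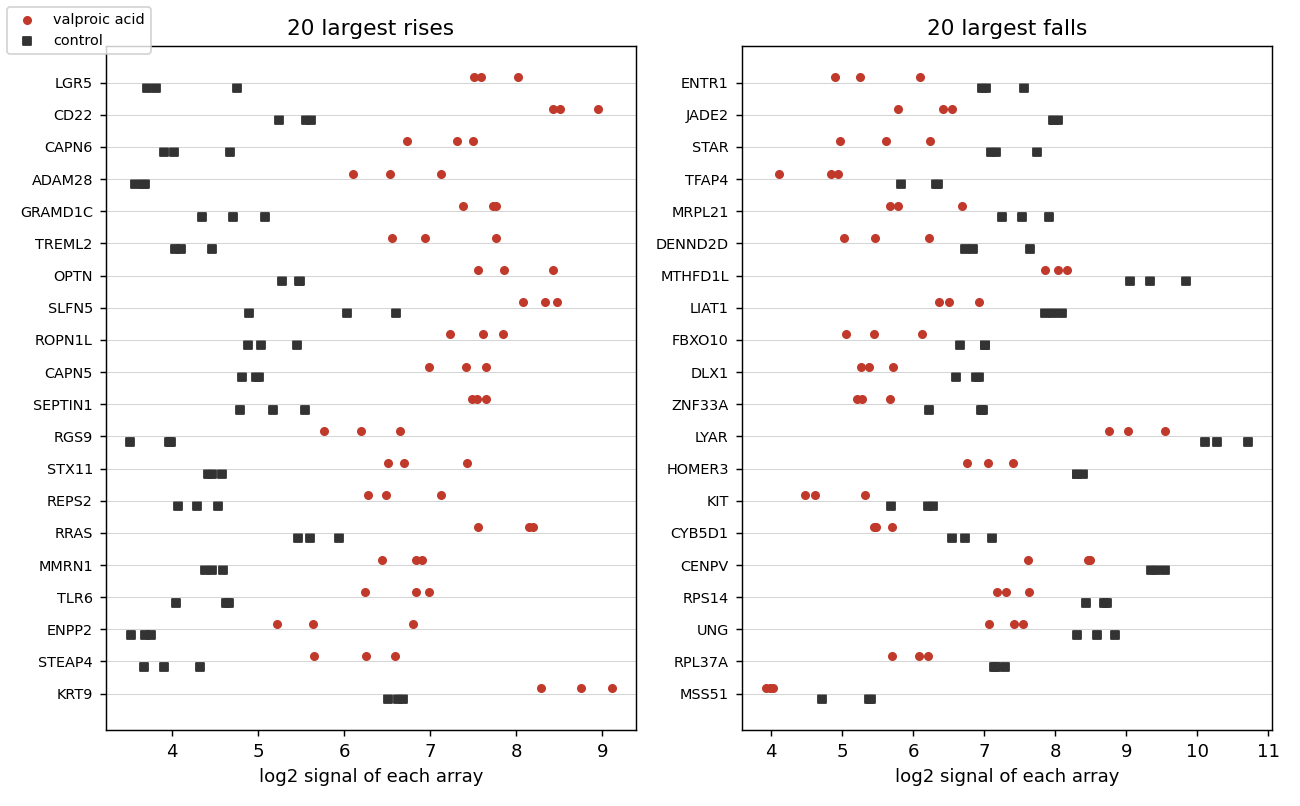
Log2 signal of each array for the 20 largest rises (left) and 20 largest falls (right) among called protein-coding genes with separated groups; red circles are the 3 valproic acid arrays and black squares the 3 controls. The rises reach 3.61 (LGR5), the falls -1.77 (ENTR1).

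The class I deacetylases, the main targets of valproic acid, were not called in their own messenger RNA, but some other deacetylases were. The class I enzyme HDAC1 had 11.45, 11.33 and 11.30 in valproic acid, against 11.27, 11.18 and 11.43 in control, with overlapping groups and an adjusted p of 0.808. HDAC2 changed by -0.39 (SE 0.20; adjusted p = 0.316), HDAC3 by 0.05 (SE 0.15) and HDAC8 by 0.24 (SE 0.16), and none was called. Of 18 deacetylases and sirtuins 4 (22.2%) were higher and 1 (5.56%) lower, against 4.73% and 2.74% of all genes. Their median was 0.06, against -0.00 over all genes. HDAC9, a class IIa enzyme, had 7.03, 5.99 and 6.52 in valproic acid, against 5.09, 5.14 and 4.78 in control (change 1.51, SE 0.27; adjusted p = 0.00277). HDAC11, the lone member of class IV, had 5.23, 5.29 and 5.15, against 4.33, 4.21 and 4.0 in control, a rise of 1.04 (SE 0.16). HDAC5, of class IIa, rose by 0.85 (SE 0.18), and the mitochondrial sirtuin SIRT4 was called at 0.40 (SE 0.11), a call lost without control replicate 2 or 3 or valproic acid replicate 1 or 3 (adjusted p up to 0.187). HDAC4, also of class IIa, went the other way at -1.02 (SE 0.21), a call lost without valproic acid replicate 1 (adjusted p = 0.0519).

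Genes that add acetyl groups were lower or not called. Of 21 acetyltransferases and scaffolds 0 were higher and 4 (19%) lower, against 4.73% and 2.74% of all genes. All 21 had a mean level of at least 5. Among genes with control levels between 6 and 8, 4.35% were called lower, and between 8 and 10, 7.91%. Of the 21 changes 16 were negative, with a median of -0.19. KAT2A, the GCN5 acetyltransferase of the SAGA and ATAC complexes, had 7.42, 7.74 and 7.59 in valproic acid, against 8.65, 8.55 and 9.0 in control. No array overlapped, and the change was -1.15 (SE 0.15; adjusted p = 0.000245). TADA2A, an adaptor that works with KAT2A, fell by 0.50 (SE 0.10), and JADE2 belongs to the same list. The remaining call, the nuclear receptor coactivator NCOA2 at -0.63 (SE 0.18), was lost without any of the 6 arrays (adjusted p 0.0886 to 0.121). EP300 and CREBBP, the large coactivator acetyltransferases, were not called.

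Subunits of repressor complexes moved both ways. CHD3, a chromatin remodeller of the NuRD deacetylase complex, had 7.99, 8.35 and 7.93 in valproic acid, against 9.02, 9.20 and 9.34 in control (change -1.10, SE 0.17). PHF21A, of the LSD1 and CoREST complex, rose by 0.78 (SE 0.16). Of 24 such subunits 3 were higher and 1 lower, of which 1 and 1 kept their call whichever array was left out. Of 16 bromodomain genes 2 were higher, SP110 at 1.34 (SE 0.14) and SP140 at 0.56 (SE 0.17), both nuclear body proteins that interferons are known to raise. SP140 lost its call without any of the 6 arrays (adjusted p 0.0673 to 0.21). Of 22 Polycomb genes 2 (9.09%) were higher and 2 (9.09%) lower, against 4.73% and 2.74% of all genes. Most of them (20) had a mean level of at least 5. Among genes with control levels between 6 and 8 the shares were 9.1% and 4.35%, and between 8 and 10 they were 7.19% and 7.91%. The Polycomb counts thus lay near the shares of genes at like levels. PHC1 (0.93, SE 0.14) and RYBP (0.57, SE 0.11), both of repressive complex 1, were higher. KDM2B (-0.81, SE 0.20) and PHC3 (-0.45, SE 0.11) were lower, and without control replicate 2 or 3 both of these lower calls were lost. The 11 measured DNA methylation genes had 0 calls.

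**Figure D3:**
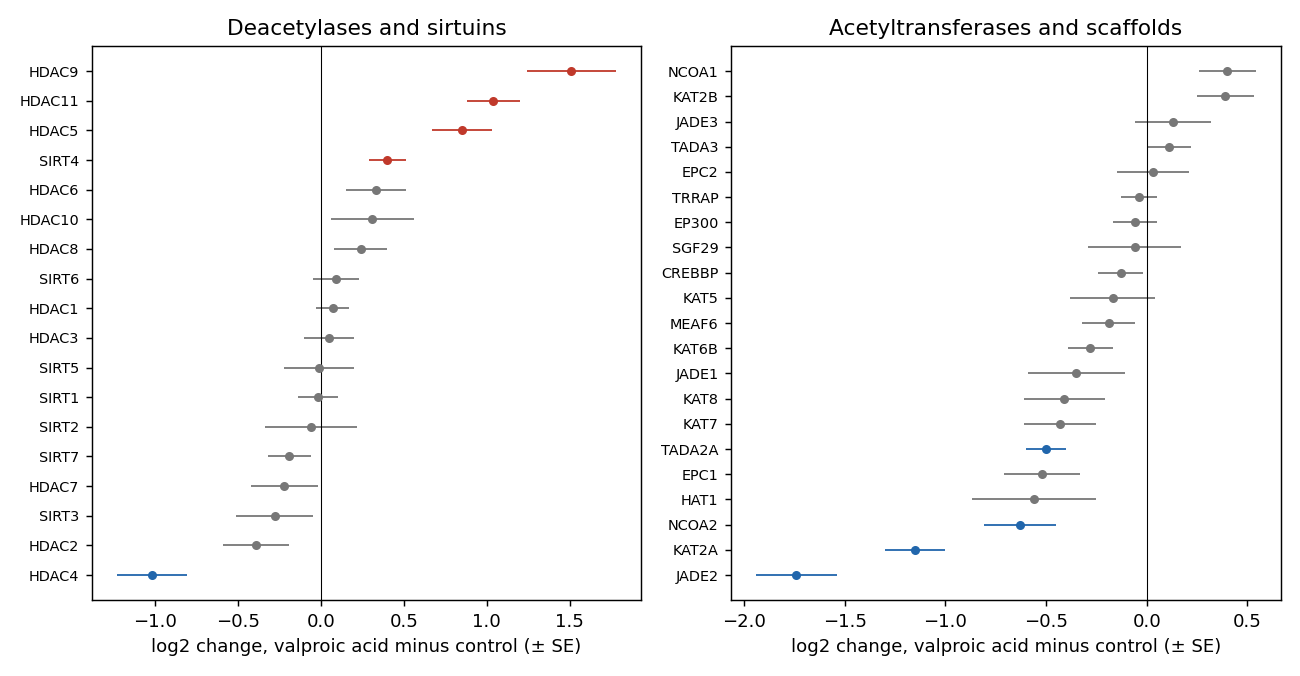
Log2 change (valproic acid minus control, bars ± SE from limma) of 18 deacetylases and sirtuins (left) and 21 acetyltransferases and scaffolds (right); red was called higher, blue lower and grey not called. HDAC9 leads at 1.51 and HDAC4 ends at -1.02, and all 4 calls on the right are falls, down to JADE2 at -1.74.

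Of 20 measured genes that deacetylase inhibitors commonly raise in other cells 5 were higher and 0 lower, with a median of 0.46 and 17 positive changes; 3 were higher without valproic acid replicate 1, and 3 kept their call whichever array was left out. The list was written from general knowledge but with earlier results of these data known, so its counts are no independent check. The actin-severing protein GSN had 6.71, 5.16 and 6.19 in valproic acid, against 4.03, 4.89 and 4.54 in control, a rise of 1.53 (SE 0.31) that was not called in a fit of these 6 arrays alone (adjusted p = 0.0591), and the lysosomal protease CTSD rose by 0.62 (SE 0.12). DHRS2, a short-chain dehydrogenase, had 5.77, 4.99 and 5.10 in valproic acid, against 3.61, 3.86 and 3.89 in control. Its groups were separate, but its adjusted p of 0.0464 became 0.0603 to 0.192 when any of the 6 arrays was left out. The cyclin-dependent kinase inhibitor CDKN1A, a well known member, was on no named probe set.

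Many genes of ribosome assembly were called lower. The factors that build ribosomes in the nucleolus are known targets of MYC. Of 67 measured ribosome biogenesis factors 27 (40.3%) were lower and 0 higher, against 2.74% lower over all genes, and 65 of 67 changes were negative. Of the 67, 66 had a mean level of at least 5. Among genes with control levels between 8 and 10, 7.91% were called lower. The median of the list was -0.48, against -0.00 over all genes, and -0.66, -0.36 and -0.40 in valproic acid replicates 1, 2 and 3, while the controls ran from -0.07 to 0.12 around their own mean. The number lower was 10 without valproic acid replicate 1 and 10 without control replicate 3, and 9 kept their call whichever array was left out. A fit of these 6 arrays alone gave 13. WDR43, part of the small subunit processome, had 10.11, 10.28 and 10.04 in valproic acid, against 10.94, 11.08 and 10.98 in control, a change of -0.86 (SE 0.11; adjusted p = 0.000173). The helicase DHX37 fell by 1.03 (SE 0.15) and NIP7, which acts in pre-ribosomal RNA processing, by 0.87 (SE 0.14).

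MYC itself fell. It had 9.55, 9.84 and 9.66 in valproic acid, against 10.74, 10.61 and 10.79 in control, without overlap (change -1.03, SE 0.22; adjusted p = 0.00886). Of 23 genes of the MYC family, its partners and MYC-regulated genes 6 were lower and 0 higher, with a median of -0.41, and 3 kept their call whichever array was left out: MYC, the nucleolar protein NOLC1 (-0.64, SE 0.13) and the mitochondrial chaperonin HSPD1 (-0.93, SE 0.18). NOLC1 is also counted among the ribosome factors.

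Some ribosomal protein genes and translation factors were called lower. Of 49 cytosolic ribosomal protein genes 8 were lower and 0 higher, with a median of -0.36, and 5 kept their call whichever array was left out. The count was 13 in a fit of these 6 arrays alone, 14 among genes with a mean level of at least 5, and 13 with a trended robust variance. RPS14 had 7.18, 7.31 and 7.63 in valproic acid, against 8.68, 8.43 and 8.72 in control, a change of -1.24 (SE 0.21). RPL37A (-1.20, SE 0.22), RPS26 (-1.08, SE 0.20) and RPL22L1 (-0.98, SE 0.17) were also lower. Ribosomal protein genes have many processed copies in the genome, so a probe set can pick up more than 1 of them. Of 31 translation factors and tRNA synthetases 7 were lower and 0 higher, at a median of -0.28, but the count was 1 without valproic acid replicate 1 or in a fit of these 6 arrays alone, and 2 without control replicate 3.

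Some promoters of the ribosome assembly genes, though not most, carried the letters CACGTG, the core E-box that MYC and related factors bind. The window searched ran from 250 bases before to 50 bases after the start of each gene, in RefSeq sequence of build GRCh38.p14, for the 9707 of 11915 protein-coding genes that matched the table. The motif reads the same on both strands. It was in 9.1% of all these promoters, in 34.5% of the ribosome biogenesis list (19 of 55) and in 45.8% of its members called lower (11 of 24). Over all genes it was in 18.4% of those called lower and in 8.17% of those called higher. Among genes with a control level of 6 or more the shares were 19.3% for those lower and 10.4% for those not called. These are descriptions of letters and show no binding. The 3 largest falls of the list with the motif before the start are shown, 5′ to 3′ on the gene's strand with the motif in capitals.
UTP18, chr17:51260430-51260489, plus strand: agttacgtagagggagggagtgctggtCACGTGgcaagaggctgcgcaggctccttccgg
DDX54, chr12:113185507-113185566, minus strand: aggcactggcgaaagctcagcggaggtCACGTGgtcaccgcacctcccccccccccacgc
NAT10, chr11:34105569-34105628, plus strand: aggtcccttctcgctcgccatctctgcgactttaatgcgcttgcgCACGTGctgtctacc
UTP18, of the small subunit processome, fell by 0.75 (SE 0.13), the helicase DDX54 by 0.72 (SE 0.14), and NAT10, which acetylates cytidines in ribosomal RNA, by 0.55 (SE 0.13). NAT10 was not called without control replicate 3 (adjusted p = 0.0983) or without valproic acid replicate 1 (0.0991).

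**Figure D4:**
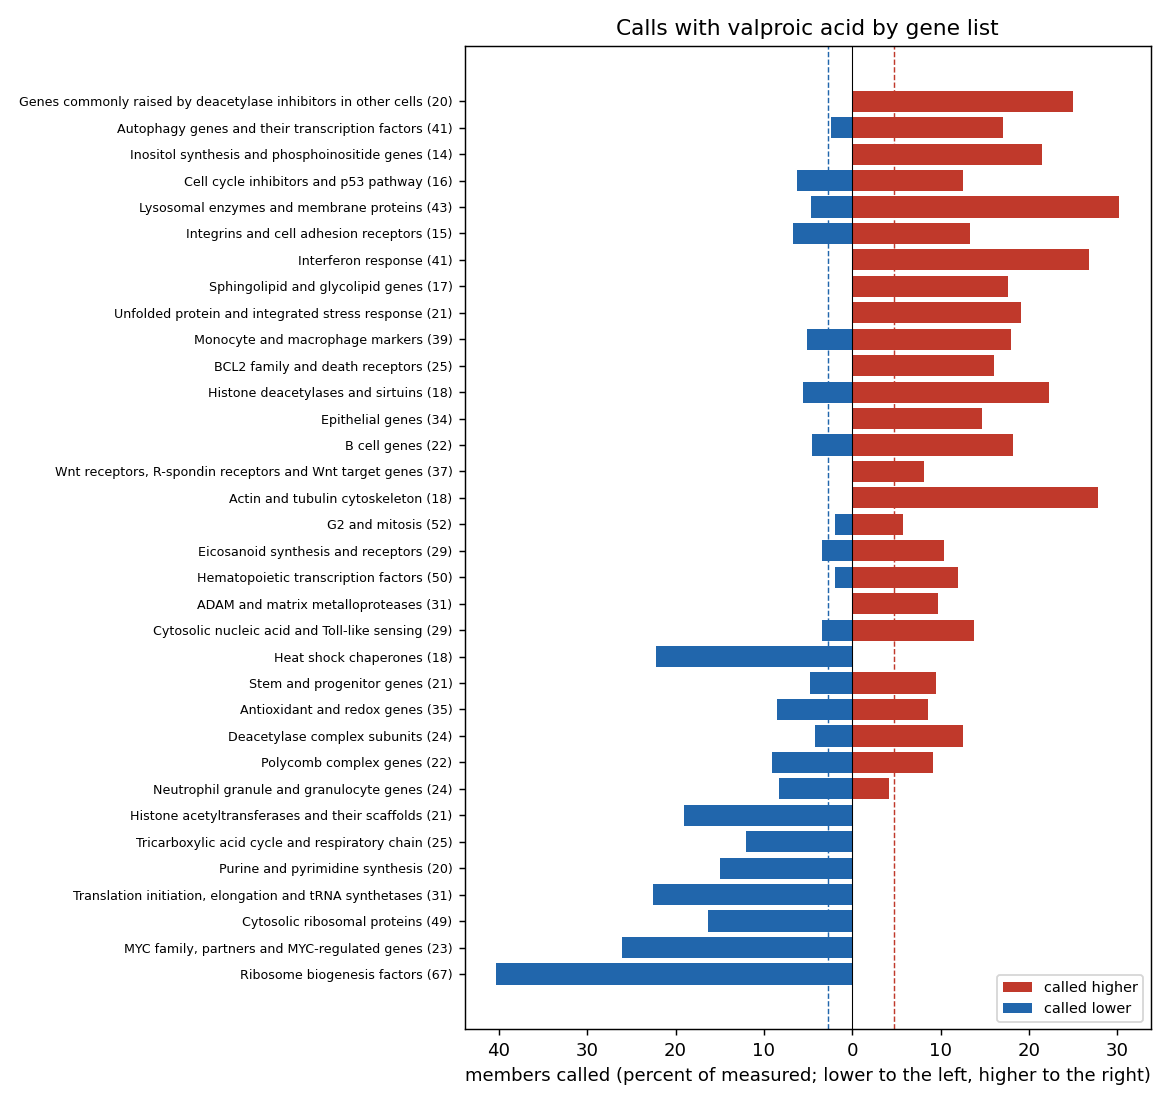
Share of measured members called lower (blue, to the left) and higher (red, to the right) with valproic acid, for lists with 10 or more measured members (number in brackets) and 3 or more calls, ordered by median change from the highest at the top; dashed lines mark 4.73% higher and 2.74% lower over all genes. Ribosome biogenesis factors reach 40.3% lower and lysosomal genes 30.2% higher.

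Many lysosomal genes were called higher. Lysosomes break down macromolecules with acid hydrolases, and transcription factors of the TFEB and TFE3 family are known to switch on their genes. Of 43 lysosomal enzymes and membrane proteins 13 (30.2%) were higher, against 4.73% over all genes, and 2 were lower. The median was 0.17, and 7 of the 13 kept their call whichever array was left out, with 7 higher without valproic acid replicate 1 or 3, 8 without control replicate 1 or 2, and 8 in a fit of these 6 arrays alone. GRN, the precursor of the granulins, had 10.35, 9.82 and 10.37 in valproic acid, against 8.89, 8.79 and 8.96 in control, a rise of 1.30 (SE 0.22; adjusted p = 0.00179). IDS, which removes sulfate from heparan and dermatan sulfate, rose by 1.06 (SE 0.17), the phospholipase-like PLBD2 by 0.96 (SE 0.15), the calcium channel MCOLN1 by 0.84 (SE 0.18), and PSAP, the precursor of the saposins, by 0.75 (SE 0.15). The sulfatase ARSB fell by 1.07 (SE 0.20).

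In the TFEB and TFE3 family, TFE3 alone was called. TFE3 had 7.46, 7.42 and 7.48 in valproic acid, against 6.57, 6.75 and 6.73 in control, a rise of 0.76 (SE 0.12; adjusted p = 0.0013). TFEB had 4.10, 3.47 and 4.09 in valproic acid, against 3.35, 3.74 and 3.48 in control, overlapping and close to background (adjusted p = 0.385). MITF and TFEC were not called. Of 41 autophagy genes and their factors 7 were higher and 1 lower, at a median of 0.24; OPTN and TFE3 were the 2 called higher whichever array was left out, and the count was 4 without control replicate 1, without valproic acid replicate 1 or in a fit of these 6 arrays alone.

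The 8 letters TCACGTGA, the core of the sites that TFEB and its relatives bind, contain CACGTG and also read the same on both strands. They were in 1.57% of all promoters, in 6 of 30 of the lysosomal list and in 33.3% of its members called higher (3 of 9), but in 0 of 55 ribosome biogenesis promoters. CACGTG was in 36.7% of the lysosomal promoters (11 of 30). Over all genes the 8 letters were in 1.81% of those called higher, and at a control level of 6 or more in 2.01% of those called higher and 2.62% of those not called. So the same 6 letters were present in a list with 27 members called lower and in a list with 13 called higher. The 8 letters were in 6 of 30 lysosomal promoters and 0 of 55 ribosome biogenesis promoters. At a share of 1.57% of all promoters, few would be found among 55, so their absence there does not set the ribosome biogenesis list apart from all promoters. The lysosomal list did hold them more often than all promoters and than the ribosome biogenesis list. The difference between the lists was not tested. The 3 raised genes with the longer motif are shown in the same manner.
PLBD2, chr12:113358527-113358586, plus strand: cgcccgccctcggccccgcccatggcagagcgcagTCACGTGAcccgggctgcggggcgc
MCOLN1, chr19:7522564-7522623, plus strand: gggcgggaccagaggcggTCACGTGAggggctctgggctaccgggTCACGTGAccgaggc
IGF2R, chr6:159969022-159969081, plus strand: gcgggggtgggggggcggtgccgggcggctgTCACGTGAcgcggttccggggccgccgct
MCOLN1 holds the motif 2 times and IGF2R 3 times in the whole window. IGF2R, the receptor that carries new hydrolases to lysosomes, had 9.44, 9.24 and 9.49 in valproic acid, against 8.55, 8.78 and 8.78 in control, a rise of 0.69 (SE 0.12).

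Of 16 fatty acid synthesis genes 2 were called lower and 0 higher, with a median of -0.15. FASN, fatty acid synthase, had 7.94, 7.99 and 7.96 in valproic acid, against 9.04, 9.20 and 9.03 in control, a change of -1.12 (SE 0.14; adjusted p = 0.000158). ACACA, which makes its malonyl substrate, had 7.82, 8.22 and 7.78 in valproic acid, against 8.89, 9.13 and 9.07 in control, a change of -1.09 (SE 0.16). In both genes the groups were more than a log2 unit apart on average. Of 22 genes that handle valproate or oxidise fatty acids in mitochondria 1 was called, ACSL5, a long-chain acyl-CoA synthetase, with 8.51, 9.03 and 9.02 in valproic acid, against 9.90, 9.96 and 9.87 in control (change -1.06, SE 0.18). CPT1A, the carnitine transferase that admits fatty acids to mitochondria, was not called (0.31, SE 0.13; adjusted p = 0.185).

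Folate and amino acid enzymes gave few calls. Of 24 folate and one-carbon genes 2 were lower, MTHFD1L and the purine enzyme ATIC (-0.48, SE 0.12), of which ATIC lost its call without control replicate 2 (adjusted p = 0.0669), control replicate 3 (0.112) or valproic acid replicate 1 (0.121). PSAT1, which makes phosphoserine on the way to serine, had 10.76, 10.66 and 10.50 in valproic acid, against 11.28, 11.21 and 11.40 in control (change -0.66, SE 0.11). It was 1 of 2 lower among 9 genes of serine, glycine, proline and asparagine synthesis.

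Inositol and GABA metabolism are known for their links to valproate in nervous tissue. Of 14 inositol and phosphoinositide genes 3 were higher and 0 lower: PI4K2A, a phosphatidylinositol kinase (0.85, SE 0.15), CDIPT, which makes phosphatidylinositol (0.76, SE 0.15), and the inositol monophosphatase IMPA2 (0.46, SE 0.13), whose call was lost without any array but valproic acid replicate 2 (adjusted p up to 0.151). Of 6 GABA genes 0 were called, with the GABA transaminase ABAT at -0.07 (SE 0.23). ACER2, an alkaline ceramidase, had 7.90, 7.43 and 7.58 in valproic acid, against 5.74, 6.23 and 5.51 in control, a rise of 1.81 (SE 0.27) and the largest of 17 sphingolipid genes.

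Some monocyte genes were called higher. The 39 measured markers of monocytes and macrophages gave 7 calls higher and 2 lower, against 4.73% and 2.74% of all genes, with a median of 0.09, and 4 of the 7 kept their call whichever array was left out. CSF1R, the receptor for macrophage colony-stimulating factor, had 5.68, 5.65 and 6.06 in valproic acid, against 4.66, 4.20 and 4.15 in control, a rise of 1.46 (SE 0.30; adjusted p = 0.00724). The fractalkine receptor CX3CR1 had 8.12, 7.80 and 8.01, against 6.58, 6.27 and 6.79 in control (change 1.43, SE 0.29). The co-stimulator CD86 rose by 1.31 (SE 0.18) and the activating receptor TREM1 by 1.17 (SE 0.18). CD14 and SPI1, given with the markers above, were not called, and CD68 was called lower at -0.76 (SE 0.22), a call lost without any array but valproic acid replicate 2 (adjusted p up to 0.205). The other lower call, LST1 (-0.98, SE 0.25), was lost without control replicate 1 or 3 or valproic acid replicate 1 or 3. ITGAM, the integrin chain often used to follow myeloid maturation, was on no named probe set.

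Of 24 granulocyte genes 2 (8.33%) were called lower and 1 (4.17%) higher, against 2.74% and 4.73% of all genes, with a median of -0.10. MPO, the myeloperoxidase of primary granules, had 11.29, 11.48 and 11.69 in valproic acid, against 12.31, 12.23 and 12.30 in control (change -0.79, SE 0.14). AZU1, azurocidin of the same granules, fell by 0.96 (SE 0.19), while the formyl peptide receptor FPR2 rose by 1.02 (SE 0.18). The early-response transcription factor EGR1, known to act in monocyte differentiation, had 10.18, 9.97 and 11.14 in valproic acid, against 8.14, 8.35 and 8.84 in control, a rise of 1.99 (SE 0.43), and it alone of the 6 hematopoietic transcription factors called higher (of 50) kept its call whichever array was left out.

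Innate sensing and interferon-regulated genes were among the rises. TLR6 and its relative TLR1, which both pair with TLR2, were higher, TLR1 with 5.86, 5.09 and 5.04 in valproic acid, against 3.74, 3.99 and 3.55 in control (change 1.58, SE 0.25). The cytokine IL18 rose by 0.90 (SE 0.17), while IRAK1, a kinase that relays Toll-like receptor signals, had 7.02, 7.64 and 7.56, against 8.47, 8.40 and 8.80 in control, a change of -1.15 (SE 0.21). Of 29 sensing genes 4 were higher and 1 lower. Among 41 genes of the interferon response 11 were called higher and 0 lower, 8 of them called whichever array was left out, although the median was 0.14 and 16 changes were negative. SLFN5, a nuclear protein of the Schlafen family, had 8.47, 8.33 and 8.08 in valproic acid, against 6.03, 6.60 and 4.89 in control (change 2.45, SE 0.31). SAMD9L, an antiviral restriction factor, rose by 1.49 (SE 0.18), the guanylate-binding protein GBP5 by 1.34 (SE 0.20), the ISG15 ligase HERC5 by 1.15 (SE 0.22) and the RNA sensor RIGI by 0.83 (SE 0.16). Of 36 genes of the NF-kB pathway and inflammatory cytokines 0 were higher and 1 was lower. Neither the 13 genes of MHC class I presentation nor the 15 ligands of NK cell receptors gave a call.

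Cell cycle lists gave few calls. Of 25 DNA replication genes 2 were lower and 0 higher, with 22 of 25 changes negative and a median of -0.18. Of 52 genes of G2 and mitosis 3 (5.77%) were higher and 1 (1.92%) lower, with a median of 0.04. Over all genes the shares were 4.73% and 2.74%. All 52 had a mean level of at least 5. Among genes with control levels between 6 and 8 the shares were 9.1% and 4.35%, and between 8 and 10 they were 7.19% and 7.91%. Beside those the list gave fewer calls both ways. CDC25A, a phosphatase that activates cyclin-dependent kinases, had 8.94, 8.91 and 8.93 in valproic acid, against 9.50, 9.26 and 9.65 in control (change -0.55, SE 0.11), and it was the only call of both lists made whichever array was left out. The BCL2 family and death receptors gave 4 calls higher and 0 lower among 25 genes, or 2 higher in a fit of these 6 arrays alone: the anti-apoptotic BCL2A1 (0.93, SE 0.19), the mitophagy receptor BNIP3L (0.79, SE 0.15), the apoptosome scaffold APAF1 (0.42, SE 0.09), and BCL2L12 (0.46, SE 0.13), whose call was lost without any array but control replicate 3 (adjusted p up to 0.155).

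Some genes of the cytoskeleton and of adhesion were called. TPM4, a tropomyosin that coats actin filaments, had 9.45, 9.41 and 9.55 in valproic acid, against 8.19, 8.21 and 8.17 in control, with little spread inside either group (change 1.28, SE 0.10; adjusted p = 2.32e-06). The actin bundler PLS1 rose by 1.03 (SE 0.16). Together with GSN, TMSB10 and TPM1 they made 5 (27.8%) higher and 0 lower of 18 measured cytoskeletal genes, against 4.73% and 2.74% of all genes. A fit of these 6 arrays alone gave 3 higher. TPM1 (0.80, SE 0.19) lost its call without control replicate 1 (adjusted p = 0.068), control replicate 2 (0.0812) or valproic acid replicate 1 (0.0747). The adhesion molecule ALCAM rose by 1.02 (SE 0.15) and the selectin ligand SELPLG fell by 0.74 (SE 0.16). CXCR4, the receptor for the chemokine CXCL12, had 10.24, 10.01 and 9.61 in valproic acid, against 8.38, 8.85 and 8.83 in control (change 1.27, SE 0.25).

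Single genes known from other tissues were called. Of 22 B cell genes 4 were higher and 1 lower: CD22, the adaptor BANK1 (1.37, SE 0.26), CD24 (0.77, SE 0.14) and PAX5 rose, of which PAX5 (0.76, SE 0.21) lost its call without any array but valproic acid replicate 3 (adjusted p up to 0.188), and the kinase BTK fell by 0.90 (SE 0.18). Of 34 epithelial genes 5 were higher, against 4.73% of all genes, and 3 were higher without control replicate 2 or valproic acid replicate 1 or 3. The junction protein JUP at 1.43 (SE 0.24) and the keratin KRT23 at 1.16 (SE 0.23) were the 2 that kept their call whichever array was left out. Of 37 Wnt receptors and targets 3 (8.11%) were higher, against 4.73% of all genes, and LGR5 was the 1 called whichever array was left out. Of 12 erythroid genes 1 was higher, of 38 neuronal genes 1 and of 15 stromal genes 1, against 4.73% of all genes. The erythroid call, EPOR, was lost without control replicate 3 or valproic acid replicate 1 or 3, and the neuronal call, NLGN1, without any control array or valproic acid replicate 1. The stromal call, VIM (1.27, SE 0.16), was lost with the mean of its probe sets. The 26 germline genes and the 7 cancer-testis antigens gave 0 calls.

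Valproic acid was also given with the last of the 3 decitabine pulses, which "after decitabine" stands for here and below. That comparison (decitabine plus valproic acid minus decitabine) shares no array with valproic acid minus control. Both sets of calls do share the spread of each gene, estimated on all 18 arrays, so a gene with a small spread is favoured in both. Of the 704 genes called higher with valproic acid alone, 658 (93.5%) were also positive after decitabine, against 48.8% of all genes, and 260 (36.9%) were called higher there, against 3.57% of all genes. These 260 were 49.0% of the 531 called higher after decitabine. Of the 408 called lower alone, 380 (93.1%) were negative and 153 (37.5%) were called lower, against 2.57% of all genes, which was 40.1% of the 382. Opposite calls were 2 and 0. The genes were chosen for their change alone, so that their medians of 0.78 alone and 0.45 after decitabine, or -0.68 and -0.44 for falls, are not comparable in size. Fitted on its own 6 arrays alone, that comparison called 177 genes in place of 913 (6.13% of all), and 360 to 1227 when 1 of its arrays was left out. Among genes called in both were CD22 (3.16 alone, 2.58 after decitabine), ADAM28 (2.95 and 2.20), JADE2 (-1.74 and -2.50), KAT2A (-1.15 and -0.77), CHD3 (-1.10 and -1.32), FASN (-1.12 and -0.87) and WDR43 (-0.86 and -0.71).

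The difference between the 2 changes was itself tested. It was called for 9 genes (0.0605%), 2 (0.0134%) with a more positive change after decitabine and 7 (0.047%) with a more negative one, and for 1149 (7.72%) at an unadjusted p under 0.05. Of the 9, 7 were among the 704 rises with valproic acid alone. The difference subtracts the change on those same arrays, so a large rise alone favours a negative difference and this overlap is no separate result. LGR5 rose by 3.61 alone and by 1.08 after decitabine (difference -2.53, SE 0.34; adjusted p = 0.00809). GLIPR1, a secreted protein of the pathogenesis-related family, had 9.81, 8.77 and 9.39 in valproic acid, against 7.74, 7.25 and 7.16 in control, a rise of 1.94, but changed by -0.25 after decitabine (difference -2.19, SE 0.31; adjusted p = 0.0112). SP110 (1.34 alone, 0.11 after decitabine) and TPM4 (1.28 and 0.35) were also called in the difference. HDAC9 (1.51 alone, -0.01 after decitabine) and CSF1R (1.46 and -0.25) were not, so a difference in their response was not shown.

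**Figure D5:**
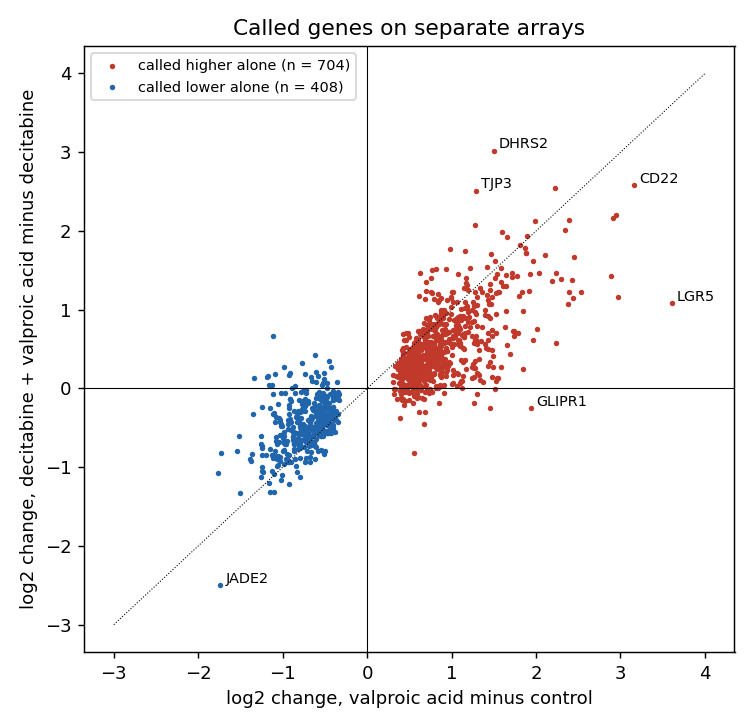
Log2 change with valproic acid minus control (horizontal) against log2 change with decitabine plus valproic acid minus decitabine (vertical) for the 704 genes called higher (red) and the 408 called lower (blue) with valproic acid alone; the dotted line marks equal change. Of the red points 658 lie above 0 and of the blue points 380 lie below 0, and LGR5 and GLIPR1 lie far under the line.

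Panobinostat, a hydroxamate deacetylase inhibitor, was given to the same cells for the same time, but its label carries another number without a unit, so the doses cannot be taken as matched. Values are therefore given side by side. LGR5 averaged 7.70 with valproic acid, 7.90 with panobinostat and 4.10 in control. MILR1, an inhibitory receptor of mast and myeloid cells, rose by 1.07 (SE 0.15) with valproic acid and differed from panobinostat by -1.01 (valproic acid minus panobinostat). Valproic acid minus panobinostat called 18 genes (0.121%), 7 (0.047%) higher and 11 (0.0739%) lower, and 1349 (9.06%) at an unadjusted p under 0.05. With only the arrays of those 2 groups in the fit it called 0. At doses that are not matched this count does not say how alike the agents are.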

How the data were processed

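Gene expression of 18 arrays (6 groups of 3) was used as the log2 signals that the authors deposited, made with RMA per the submitters' processing notes; its version, the genome build and any scan date or batch are not given in the sources used here. RMA makes the value distributions of arrays alike, so a shift shared by all genes would not show. Of 48226 probe sets 16098 had 1 gene symbol, 0 had several and 32128 had none in the platform annotation table. The probe set with the highest mean stood for a gene with several (779 genes), which left 14884 genes, with no filter on low levels. limma 3.58.1 in R 4.3.3 fitted 1 mean a group (12 residual degrees of freedom), with empirical Bayes and Benjamini-Hochberg adjustment over all genes.

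The comparison, the 65 gene lists and the named genes were chosen with earlier results of these data known. The text names the 20 largest rises and falls with separated arrays, called members of each list, the extremes of the other comparisons and fixed genes of interest, 1 of which is not reported here; it also names, after their values were seen, a few further list members and the genes whose promoters are shown. Histone, proton pump and proteasome genes had 0, 0 and 1 measured members and are not analysed here. Alternatives were the spread estimate, a replicate block, a level filter, the probe set rule, normalization, the features tested and each array left out.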

Additional observations from a re-analysis of the deposited data

Results flagged for a closer look

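For 9 genes the change with valproic acid after decitabine differed from the change with valproic acid alone in limma's test of the difference (with minus without decitabine, log2 scale, adjusted p under 0.05). The difference was negative for LGR5 (-2.53), GLIPR1 (-2.19), the pantetheinase VNN1 (-1.37), SP110 (-1.23), the pseudogene ANXA2P2 (-1.22), TPM4 (-0.93) and the focal adhesion protein LPXN (-0.81). It was positive for HSPA2, a testis-enriched chaperone of the heat shock family (1.82), and MTMR11, of the myotubularin family (1.22). HSPA2 changed by 0.20 (SE 0.15) alone and by 2.02 (SE 0.15) after decitabine. VNN1 changed by 0.55 (SE 0.16) alone, a call lost without any array but control replicate 3, and by -0.82 (SE 0.16) after decitabine. ANXA2P2 is a copy of ANXA2, and its probe set may also read that gene.

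Among the 32128 probe sets with no gene symbol here, 605 were called higher and 489 lower with valproic acid when every probe set was tested. That is 3.41% of them, against 6.29% of the 16098 named probe sets.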

How the results depend on the processing

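For valproic acid against control the number of genes called stayed within 1.5 times of 1112 under the 8 alternatives that kept all its arrays (837 to 1194), and no gene called there had an opposite call. The own-array fit shared 712 of its 837 calls with the full fit. Leaving out 1 array gave 508 to 1001 genes, lowest without valproic acid replicate 1, and 194 to 343 at 2-fold or more (289 with all arrays). After decitabine the count of 913 became 177 on its own arrays and 360 to 1227 without 1 array. Against panobinostat 18 became 0 on its own arrays and 4 to 15 without 1 array. The difference with and without decitabine had 9 genes, 3 on its own arrays, 16 with a trended robust variance and 3 to 26 without 1 array, highest without decitabine valproic acid replicate 1. Replicate numbers were not taken as pairs, since same-numbered arrays deviated together at correlations of 0.028, 0.020 and 0.104; a replicate block gave 1107 genes for valproic acid against control, 293 at 2-fold or more, 870 after decitabine, 22 against panobinostat and 9 for the difference. Over the 186 named genes that were called and all alternatives, the call held in 2173 cases, was lost in 412 and reversed in 0. Several calls were lost in the own-array fit. They include GSN, TADA2A and APAF1, which were called whichever array was left out, and ATIC, CD68 and BCL2L12, which were not. The smaller number of residual degrees of freedom limits the own-array fits, and signals near the array median limit falls.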
